A study of Homo sapiens with 45 samples.

Results

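The 10 genes described here encode the E2F transcription factors E2F1 to E2F8 and their dimerization partners DP1 and DP2 (TFDP1 and TFDP2). The family was taken up with earlier results of these data known. Its members were then defined by symbol alone, with no measured value in the rule, among the 29159 genes of the 3 count tables, and all 10 were found and passed the filter on low counts in every line. PolyA RNA was measured by paired-end sequencing in 45 libraries of 3 human neuroblastoma lines, SH-SY5Y, IMR-32 and SK-N-BE(2)C. Each line was sequenced without palbociclib (PB), after 24 h of PB and after longer PB, with 5 biological replicates per group. The libraries without PB are labelled control and are called untreated here. Neither the labels nor the study's sequencing methods say whether these cells received the solvent of the drug. PB, a small-molecule inhibitor of the cyclin-dependent kinases CDK4 and CDK6, was used at 1 µM, and the longer time was 5 d in SH-SY5Y, 5 d in IMR-32 and 7 d in SK-N-BE(2)C. The untreated libraries were collected together with those of 24 h, so that longer PB and control also differ in time in culture. Every group of a line is that same established tumor line, and 3 lines are a narrow sample of the disease.

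E2F proteins bind DNA as dimers with a DP protein and set the transcription of the genes that carry cells from G1 into S phase. In G1 the retinoblastoma protein and its relatives p107 and p130 hold E2F dimers at their target promoters in a repressed state, and phosphorylation by CDK4 and CDK6 with D-type cyclins releases them. E2F1, E2F2 and E2F3 are classed as activators, E2F4, E2F5 and E2F6 as canonical repressors, and E2F7 and E2F8 as atypical repressors, which bind DNA without a DP partner and act back on the activators.

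The libraries held 13459219 to 25441812 counted reads, with a median of 18494528. The 8 markers of adrenergic neuroblastoma summed to 2220 to 9445 CPM (reads of a gene scaled to a common library size), with none at 0 in any library. Over all libraries TH went down to 0.106 CPM and DBH to 0.932 CPM. CHGA reached 5140 CPM and DBH 4397 CPM, and the genes behind changes of the sum were not separated. At 24 h their sums lay above all untreated ones in each line, at 5733 to 6945 against 3756 to 4245 CPM in SK-N-BE(2)C, 3730 to 4526 against 2220 to 3319 CPM in IMR-32 and 6939 to 9445 against 4465 to 6063 CPM in SH-SY5Y. The immune, Schwann cell and endothelial markers summed to at most 4.26, 13.99 and 3.47 CPM. Schwann cell sums in SK-N-BE(2)C were 5.00 to 8.22 CPM untreated, 9.29 to 13.99 CPM at 24 h and 10.2 to 13.7 CPM at 7 d. Those of IMR-32 at 5 d (5.27 to 9.26 CPM) lay above its untreated ones (1.15 to 3.32 CPM). The other treated groups overlapped their untreated ones. Mesenchymal markers (5 of 6 found) summed to 272 to 1850 CPM. Their sums at the longer PB time lay below all untreated ones in IMR-32 (272 to 447 against 584 to 1066 CPM) and SH-SY5Y (916 to 1092 against 1397 to 1850 CPM), and overlapped them in SK-N-BE(2)C (347 to 697 against 618 to 830 CPM). The 4 fibroblast markers summed to 24.4 to 449 CPM, with LUM at up to 370 CPM in a library. They were lower at 5 d than untreated in IMR-32 (24.4 to 36.5 against 78.6 to 140 CPM) and higher at 7 d in SK-N-BE(2)C (233 to 449 against 157 to 205 CPM), and the part of these markers in the results was not tested. Replicate 5 of IMR-32 stood apart in several of these genes, and values that move with it are given with and without it. In bulk libraries, fewer cells in a phase of the cycle and less RNA per cell cannot be told apart.

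RefSeq promoters in GRCh38.p14, from 250 bases before to 50 bases after a transcript start, were matched for 8 of the 10 genes in the promoter table used here, which did not list E2F5 and E2F8. The E2F site was searched on both strands as TTCCCGC or as TTCGCGC or as TTGCCGC or as TTGGCGC, and 12.97% of 35116 promoters held it, or 15.3% of 27305 genes in at least 1 promoter. Of the 8 genes, 6 held it, namely E2F1, E2F2, E2F3, E2F6, E2F7 and TFDP1. E2F4, with 1 promoter, and TFDP2, with 3, held no match. The 250 bases before the start are printed 5' to 3' on the strand of the gene for E2F1, E2F2 and E2F7, whose RNA fell under PB in every line, and for the first of 2 starts of E2F3, which was called in no comparison. Capitals mark the E2F site.
E2F1, chr20:33686386-33686635, minus strand: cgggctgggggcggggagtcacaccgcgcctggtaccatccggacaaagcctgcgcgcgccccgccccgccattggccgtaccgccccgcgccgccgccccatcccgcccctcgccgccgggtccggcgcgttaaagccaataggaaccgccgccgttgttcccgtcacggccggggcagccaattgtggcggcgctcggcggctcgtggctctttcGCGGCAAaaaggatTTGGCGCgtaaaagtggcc
E2F2, chr1:23531234-23531483, minus strand: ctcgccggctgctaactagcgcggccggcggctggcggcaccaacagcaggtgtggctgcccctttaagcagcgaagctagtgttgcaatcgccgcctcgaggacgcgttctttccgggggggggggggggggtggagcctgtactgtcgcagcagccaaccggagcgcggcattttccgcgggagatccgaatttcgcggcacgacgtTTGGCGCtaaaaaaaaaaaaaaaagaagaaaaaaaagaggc
E2F7, chr12:77065570-77065819, minus strand: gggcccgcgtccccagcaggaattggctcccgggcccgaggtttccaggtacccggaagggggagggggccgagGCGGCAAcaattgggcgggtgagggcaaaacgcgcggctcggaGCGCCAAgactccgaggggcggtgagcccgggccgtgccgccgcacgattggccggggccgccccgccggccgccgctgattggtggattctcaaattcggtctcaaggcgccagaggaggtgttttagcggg
E2F3, chr6:20401629-20401878, plus strand: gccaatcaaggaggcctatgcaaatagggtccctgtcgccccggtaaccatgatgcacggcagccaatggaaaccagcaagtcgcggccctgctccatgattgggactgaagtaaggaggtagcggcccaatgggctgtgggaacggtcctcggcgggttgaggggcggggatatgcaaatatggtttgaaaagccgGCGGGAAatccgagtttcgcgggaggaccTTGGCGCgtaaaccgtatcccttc
Counted from the start, the matches of E2F1 span -33 to -27 and -19 to -13, and the match of E2F2 spans -41 to -35. Those of E2F7 lie further upstream, at -176 to -170 and -133 to -127. E2F3 held matches at -53 to -47 and -24 to -18. TFDP1, which was called lower at 24 h in every line and is not printed, held 1 match at -120 to -114. The 1 match of E2F6 lay after the start, at 15 to 21. The second promoter of E2F3, at chr6:20403364-20403663, held no match to the E2F site, the CHR element or the CCAAT box. The CCAAT box, searched as CCAAT on both strands, was in 34.6% of promoters, with 3 matches in E2F1, 4 in the first promoter of E2F3, 4 in E2F7 and 2 in 1 of the 3 promoters of TFDP2. The CHR element, a sequence of genes expressed in G2 and mitosis, was searched as TTTGAA or as TTCGAA on both strands and was in 16.4% of promoters. It had 1 match in the promoter of E2F3 shown and 1 in each of 2 promoters of TFDP2. These matches are descriptions of letters and not of binding.

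In GRCh37, E2F1 lies at chr20:32263283-32274191, E2F2 at chr1:23832930-23857725, E2F3 at chr6:20402110-20493945 and E2F4 at chr16:67226058-67232821. E2F5 lies at chr8:86089389-86129387, E2F6 at chr2:11584501-11606303, E2F7 at chr12:77415028-77459349 and E2F8 at chr11:19245610-19263167. TFDP1 lies at chr13:114239036-114295788 and TFDP2 at chr3:141663270-141868386. All 10 are annotated as protein coding, and the union of their exons runs from 2690 bases in E2F1 to 11897 bases in TFDP2. Exons of E2F5 share 1124 bases with genes on the opposite strand, RBIS among them, and those of E2F8 share 7 bases. The sources used here do not name the strand setting of the counting, and reads of E2F5 and of these neighbours may not be separated. The 9 pseudogene copies of these genes listed in the tables held at most 18 reads in a library.

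A gene was called when edgeR's quasi-likelihood F test gave a Benjamini-Hochberg adjusted p under 0.05, over all genes tested in that line, and a log2 fold change over 0.5 in size. E2F1, E2F2, E2F7, E2F8 and TFDP1 were called lower at 24 h in all 3 lines. These were the 5 members called lower in SK-N-BE(2)C, where 10.6% of all genes tested were, and 2 members were called higher (10.9% of all genes). In IMR-32, 6 were called lower (10.5% of all genes) and 1 higher (7.87%), and in SH-SY5Y, 5 were called lower (11.0%). After 7 d in SK-N-BE(2)C, 5 were lower (22.3% of all genes) and 1 higher (24.5%). After 5 d, 6 were lower in IMR-32 (15.5%), and 5 were lower (17.3%) and 1 higher (18.6%) in SH-SY5Y. The members lower at the longer time were the same 5 in SK-N-BE(2)C and SH-SY5Y, and E2F1, E2F2, E2F5, E2F6, E2F7 and E2F8 in IMR-32. From 24 h to the longer time, 1 was lower in SK-N-BE(2)C (14.4%), 1 was lower (8.86%) and 3 were higher (10.8%) in IMR-32, and 3 were higher in SH-SY5Y (10.5%). Both PB times were set against the same untreated libraries, and their values are given side by side for that reason.

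**Figure D1:**
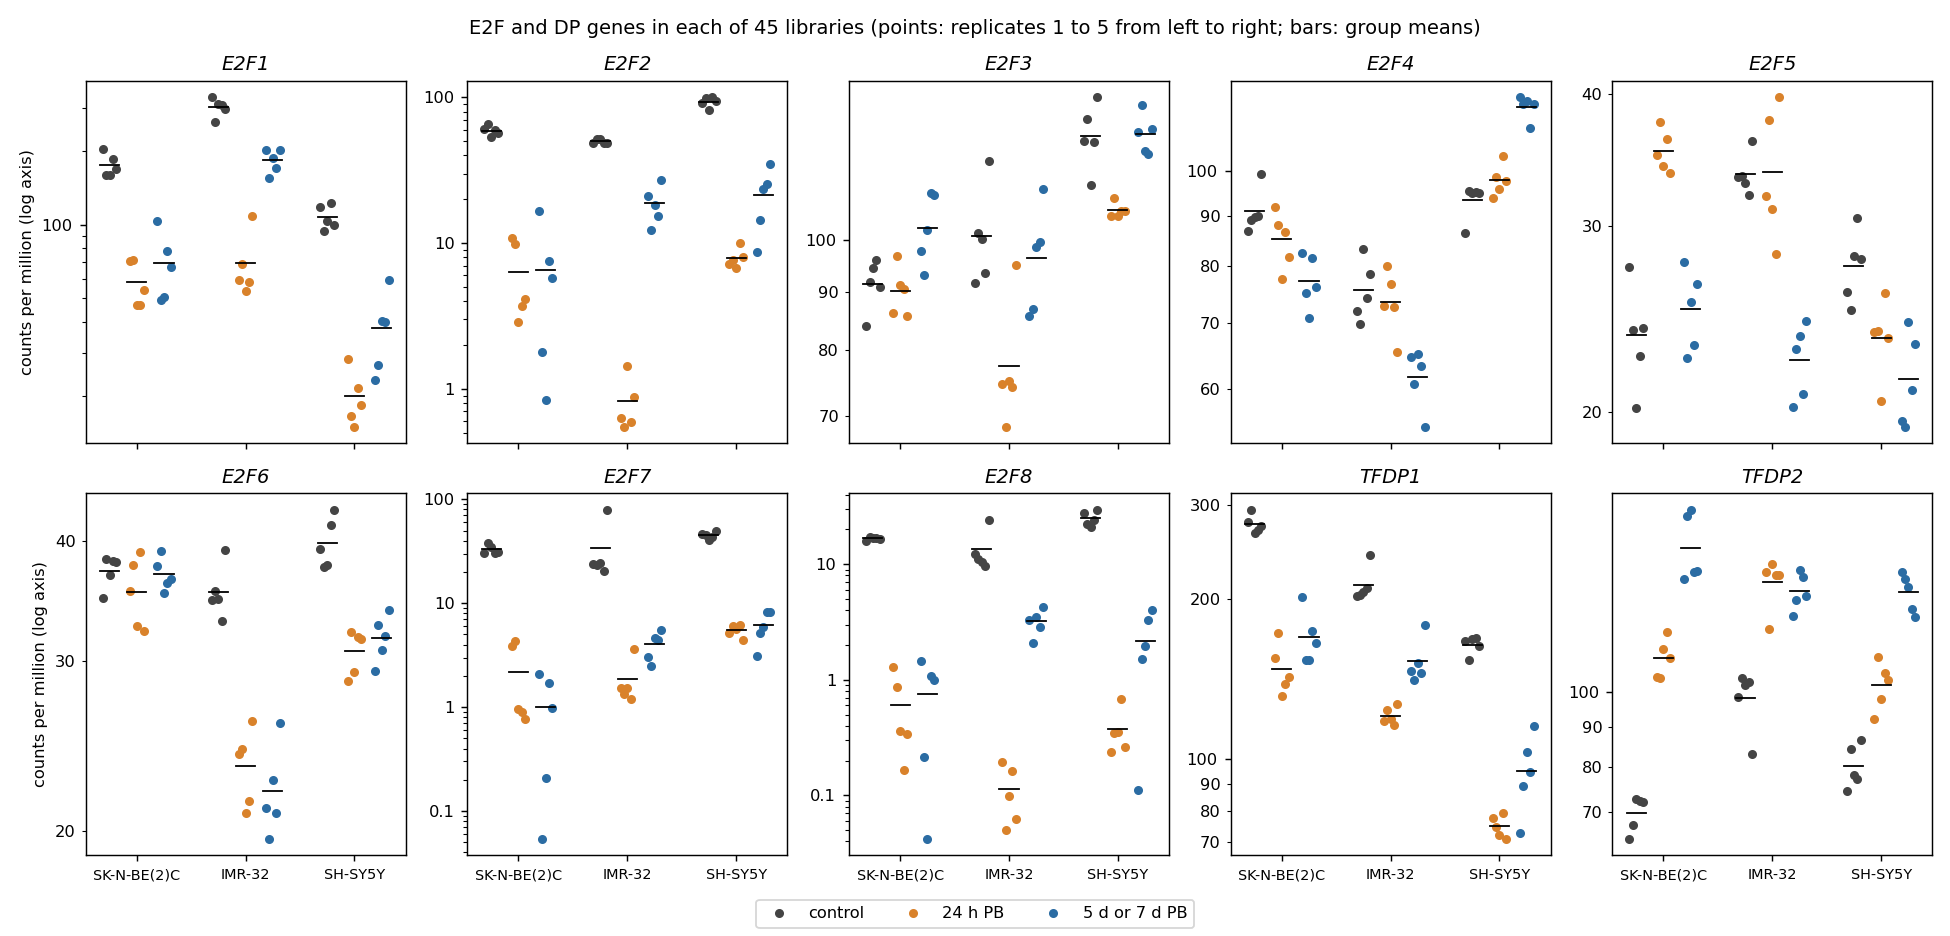
CPM of the 10 genes on log axes in the 45 libraries, 1 panel per gene, with each library as a point and the mean of a group as a bar. E2F1, E2F2, E2F7 and E2F8 lie below control in every treated library of their line, TFDP1 lies below control and TFDP2 above it, and E2F3 and E2F4 move little.

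Among the activators, E2F1 and E2F2 fell in every line at both times, and E2F3 was not called. E2F1, a driver of S phase genes, stood at 203, 159, 159.9, 185 and 169 CPM in the untreated SK-N-BE(2)C libraries, replicates 1 to 5 in order here and below. It stood at 71.1, 71.8, 46.8, 47.0 and 54.1 CPM after 24 h and at 104, 49.0, 50.6, 78.3 and 67.2 CPM after 7 d. Every treated library lay below every untreated one, while both PB groups overlapped. The log2 fold change was -1.62 ± 0.20 (adjusted p = 1.13e-05) at 24 h and -1.37 ± 0.20 (adjusted p = 1.84e-05) at 7 d, each with its SE, as below. From 24 h to 7 d E2F1 moved by 0.25 ± 0.20 (adjusted p = 0.293), which passed no threshold.

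In IMR-32, untreated E2F1 stood at 331, 262, 312, 307 and 296 CPM. At 24 h it stood at 59.5, 69.2, 53.4, 58.2 and 109 CPM and at 5 d at 203, 155, 187, 171 and 201 CPM. The 3 groups did not overlap, and the libraries of 5 d lay between the other groups. E2F1 fell by 2.07 ± 0.16 (adjusted p = 9.5e-08) on the log2 scale at 24 h and fell by 0.73 ± 0.16 (adjusted p = 0.00144) at 5 d, and rose by 1.34 ± 0.16 (adjusted p = 2.05e-05) from 24 h to 5 d. With replicate 5 left out of all 3 groups the values for E2F1 were -2.28 ± 0.11, -0.77 ± 0.11 and 1.51 ± 0.11.

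SH-SY5Y had the lowest untreated E2F1, at 118, 94.2, 103, 122 and 99.98 CPM. At 24 h it stood at 28.2, 16.5, 14.9, 21.5 and 18.3 CPM and at 5 d at 23.1, 26.6, 40.4, 40.0 and 59.2 CPM. The 5 d libraries spread widely, and the lowest 2 of them lay within the range of 24 h. E2F1 fell by 2.45 ± 0.24 (adjusted p = 1.05e-06) at 24 h and fell by 1.57 ± 0.23 (adjusted p = 2.64e-05) at 5 d, and rose by 0.87 ± 0.24 (adjusted p = 0.00857) between these times.

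E2F2, an activator with a DNA-binding domain closely related to that of E2F1, fell to a smaller share of control than E2F1 at each time in each line. In SK-N-BE(2)C it went from 60.3, 65.7, 53.1, 59.4 and 56.6 CPM untreated to 10.8, 9.90, 2.90, 3.68 and 4.12 CPM at 24 h and 16.7, 1.78, 0.841, 7.60 and 5.73 CPM at 7 d. At 7 d replicate 1 was the highest library and replicates 2 and 3 were the lowest, an order shared by E2F1, E2F7 and E2F8 except for the order within the pair. The log2 fold changes of E2F2 were -3.23 ± 0.56 (adjusted p = 0.000248) and -3.26 ± 0.56 (adjusted p = 0.000106), with -0.02 ± 0.58 (adjusted p = 0.977) from 24 h to 7 d. Without replicate 1 of 7 d the change of E2F2 at 7 d was -3.99, and that from 24 h to 7 d was -0.75 and still not called.

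In IMR-32 untreated E2F2 stood at 48.9, 51.4, 52.1, 48.9 and 48.8 CPM. It stood at 0.636, 0.551, 1.44, 0.597 and 0.877 CPM at 24 h and at 20.9, 12.4, 18.4, 15.5 and 27.1 CPM at 5 d. The 3 groups did not overlap, and each library of 5 d lay far above those of 24 h. E2F2 was at 1.70% of control at 24 h, with a log2 fold change of -5.88 ± 0.26 (adjusted p = 1.89e-10), and at 37.5% at 5 d, with -1.42 ± 0.19 (adjusted p = 3.09e-05). It rose by 4.46 ± 0.25 (adjusted p = 1.9e-08) from 24 h to 5 d. The 5 libraries of 24 h held 78 reads of E2F2 in all against 5111 in the untreated ones, a 60.8-fold difference in CPM with an exact 95% interval of 48.7 to 77.1 that covers counting error only.

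In SH-SY5Y E2F2 went from 90.9, 99.1, 81.5, 99.9 and 95.0 CPM to 7.18, 7.63, 6.70, 10.1 and 8.06 CPM at 24 h and 8.68, 14.5, 23.4, 25.5 and 35.2 CPM at 5 d. Replicate 1 of 5 d lay within the range of 24 h and the other 4 lay above it. E2F2 fell by 3.56 ± 0.29 (adjusted p = 2.05e-07) at 24 h and fell by 2.19 ± 0.27 (adjusted p = 5.15e-06) at 5 d, and rose by 1.37 ± 0.29 (adjusted p = 0.00192) between these times.

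E2F3, the remaining activator, stood between 68.5 and 134 CPM over all libraries. Its log2 fold change at 24 h was -0.05 ± 0.06 (adjusted p = 0.471) in SK-N-BE(2)C, -0.34 ± 0.10 (adjusted p = 0.0157) in IMR-32 and -0.23 ± 0.05 (adjusted p = 0.00102) in SH-SY5Y. The last 2 passed the limit on p and not the limit on size. At the longer time the values for E2F3 were 0.12 ± 0.06 (adjusted p = 0.0601), -0.08 ± 0.10 (adjusted p = 0.532) and -0.06 ± 0.05 (adjusted p = 0.278), none of them called.

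**Figure D2:**
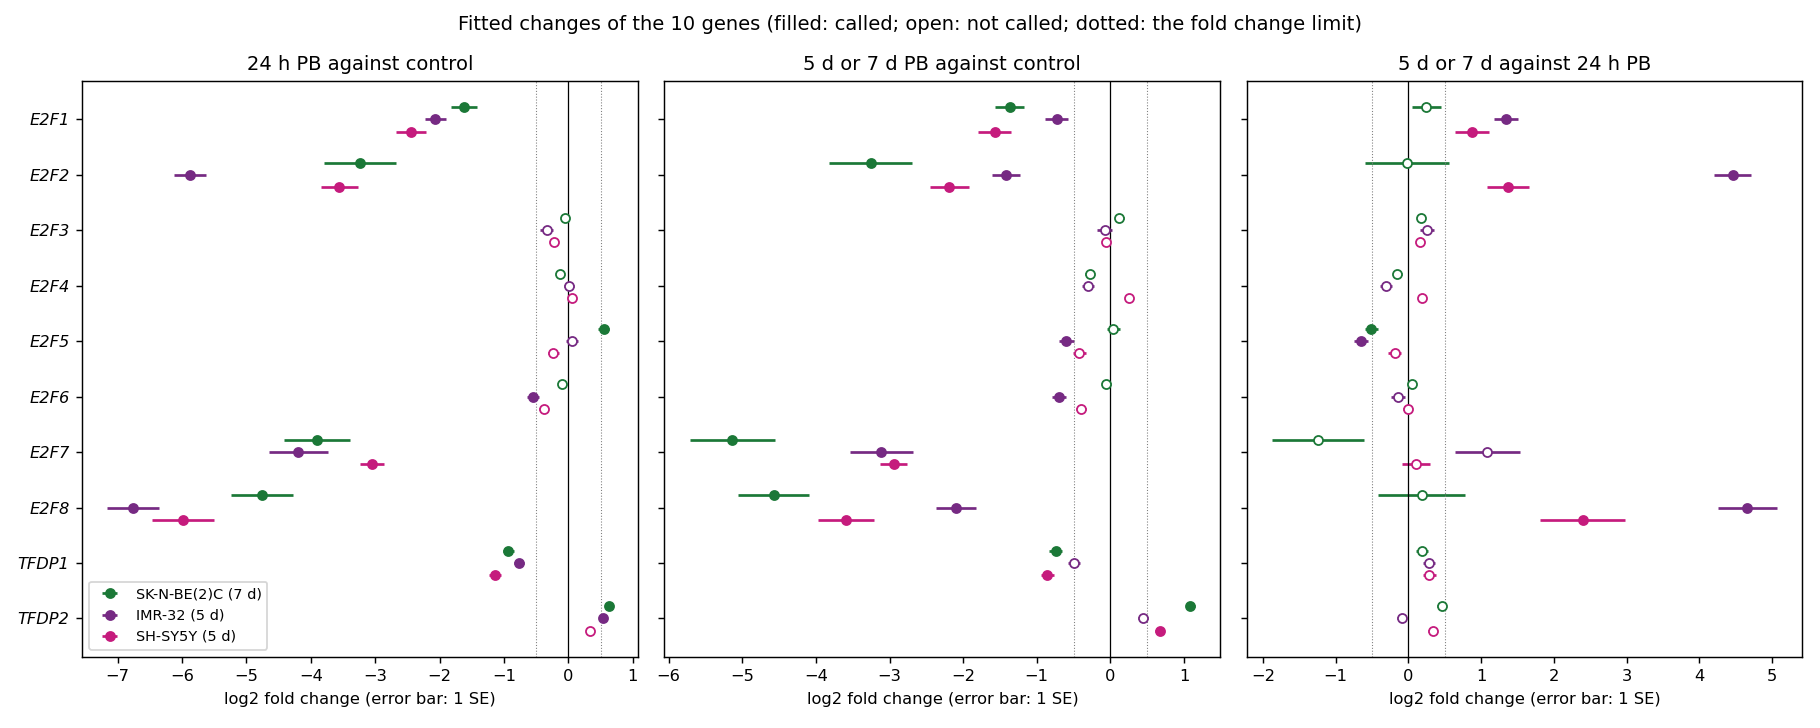
Log2 fold change of each gene, with bars of 1 SE, in the 3 lines (n = 5 per group). The left and middle panels set 24 h and the longer PB time against untreated libraries, and the right panel sets the longer time against 24 h. Against untreated libraries, E2F2, E2F7 and E2F8 fell furthest and E2F1 and TFDP1 lie less far below 0. There E2F3 and E2F4 stayed within 0.34 of 0 and TFDP2 lies above 0. In the right panel E2F1, E2F2 and E2F8 lie above 0 in IMR-32 and SH-SY5Y, and TFDP2 lies at -0.09 in IMR-32.

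Among the canonical repressors, E2F4 was called in no comparison within a line, and E2F5 and E2F6 were called in some. E2F4, which with p130 holds cell cycle genes repressed in resting cells, stood at 91.1 ± 4.78 CPM (mean ± SD, n = 5, as below) untreated in SK-N-BE(2)C, 85.2 ± 5.59 CPM at 24 h and 77.3 ± 4.84 CPM at 7 d. In IMR-32 it stood at 75.6 ± 5.33, 73.6 ± 5.49 and 61.8 ± 4.20 CPM. In SH-SY5Y it stood at 93.4 ± 3.84, 98.0 ± 3.67 and 116 ± 3.28 CPM. The longer PB libraries lay above all untreated ones in SH-SY5Y and below all of them in the other lines. The log2 fold changes of E2F4 at the longer time were -0.28 ± 0.06 (adjusted p = 0.000632), -0.30 ± 0.08 (adjusted p = 0.00475) and 0.25 ± 0.05 (adjusted p = 0.000208), each past the limit on p and under the limit on size. At 24 h they were -0.13 ± 0.06 (adjusted p = 0.0987), 0.01 ± 0.08 (adjusted p = 0.962) and 0.06 ± 0.05 (adjusted p = 0.342).

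E2F5, a repressor that also pairs with p130, stood at 27.4, 23.9, 20.2, 22.6 and 24.0 CPM untreated in SK-N-BE(2)C, at 35.01, 37.7, 34.2, 36.2 and 33.7 CPM at 24 h and at 27.7, 22.5, 25.4, 23.1 and 26.4 CPM at 7 d. The libraries of 24 h lay above all others, and those of 7 d overlapped the untreated ones. E2F5 rose by 0.55 ± 0.08 (adjusted p = 5.66e-05) at 24 h and fell by 0.51 ± 0.08 (adjusted p = 7.91e-05) from 24 h to 7 d, both just over the limit on size. Without replicate 3 of the untreated group the rise of E2F5 was 0.49. The fall was -0.48 without replicate 2 of 24 h, -0.46 without replicate 2 of 7 d and -0.47 without replicate 4 of 7 d, none of them called. In IMR-32 E2F5 stood at 33.4, 33.5, 32.9, 32.1 and 36.1 CPM untreated, 32.0, 37.8, 31.1, 28.2 and 39.7 CPM at 24 h and 20.2, 22.9, 23.6, 20.8 and 24.4 CPM at 5 d, where every library lay below all others. Its log2 fold change was 0.05 ± 0.10 (adjusted p = 0.711) at 24 h and -0.60 ± 0.10 (adjusted p = 0.000178) at 5 d, and it fell by 0.65 ± 0.10 (adjusted p = 0.000172) between these times. In SH-SY5Y it was -0.24 ± 0.09 (adjusted p = 0.0342) and -0.42 ± 0.09 (adjusted p = 4e-04), under the limit on size.

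E2F6, a repressor that lacks the pocket protein binding region and works with Polycomb proteins, was called only in IMR-32 among the 3 lines. It stood there at 34.7, 35.5, 34.8, 33.1 and 39.2 CPM untreated, 24.1, 24.3, 20.9, 21.5 and 26.0 CPM at 24 h and 21.1, 19.6, 22.6, 20.9 and 25.9 CPM at 5 d. Every treated library lay below every untreated one. E2F6 fell by 0.56 ± 0.09 (adjusted p = 3e-04) at 24 h and fell by 0.70 ± 0.09 (adjusted p = 2.69e-05) at 5 d. In SH-SY5Y it changed by -0.39 ± 0.07 (adjusted p = 0.000118) and -0.40 ± 0.07 (adjusted p = 4.64e-05), also without overlap with the untreated libraries and under the limit on size. In SK-N-BE(2)C it changed by -0.10 ± 0.06 (adjusted p = 0.171) and -0.06 ± 0.06 (adjusted p = 0.422).

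The atypical repressors E2F7 and E2F8, which repress E2F1 and other E2F targets late in S phase, fell in every line at both times, and E2F8 had the largest fall of all members at 24 h in each line. In SK-N-BE(2)C E2F7 stood at 30.1, 37.7, 34.9, 30.2 and 31.4 CPM untreated, 3.85, 4.36, 0.965, 0.892 and 0.776 CPM at 24 h and 2.08, 0.0540, 0.210, 1.70 and 0.991 CPM at 7 d. No treated library came near the untreated range, and at 7 d replicates 2 and 3 were the lowest, with 1 read in the lowest library. E2F7 fell by 3.90 ± 0.51 (adjusted p = 2.31e-05) at 24 h and fell by 5.14 ± 0.58 (adjusted p = 1.48e-06) at 7 d. From 24 h to 7 d it moved by -1.24 ± 0.64 (adjusted p = 0.107), and without replicate 1 of 7 d by -1.70 (adjusted p = 0.0461).

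In IMR-32 E2F7 stood at 24.0, 23.4, 24.1, 20.6 and 79.1 CPM untreated, with replicate 5 over 3 times as high as any other, at 1.52, 1.35, 1.54, 1.19 and 3.63 CPM at 24 h and at 3.02, 2.51, 4.59, 4.38 and 5.54 CPM at 5 d. Treated and untreated libraries did not overlap with or without replicate 5. E2F7 fell by 4.20 ± 0.46 (adjusted p = 5.79e-06) at 24 h and fell by 3.11 ± 0.42 (adjusted p = 4.06e-05) at 5 d, and the values without replicate 5 in any group were -3.97 ± 0.17 and -2.67 ± 0.16. Without replicate 5 of the untreated group alone the falls of E2F7 came to -3.61 and -2.52. From 24 h to 5 d it moved by 1.08 ± 0.45 (adjusted p = 0.0749) with all libraries. The same difference passed the limit without replicate 5 (1.30 ± 0.20, adjusted p = 6.58e-05), without replicate 5 of 24 h alone (1.45, adjusted p = 0.03), without replicate 5 of the untreated group alone (1.08, adjusted p = 0.00671), and with the replicate number as a block (1.14, adjusted p = 0.00133).

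In SH-SY5Y E2F7 stood at 46.2, 45.3, 40.4, 43.7 and 49.7 CPM untreated, 5.16, 5.997, 5.64, 6.15 and 4.45 CPM at 24 h and 3.14, 5.19, 5.84, 8.23 and 8.27 CPM at 5 d. Both PB groups overlapped each other and lay far below control. E2F7 fell by 3.05 ± 0.18 (adjusted p = 1.06e-09) at 24 h and fell by 2.95 ± 0.18 (adjusted p = 1.15e-09) at 5 d, and moved by 0.10 ± 0.20 (adjusted p = 0.693) between these times.

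E2F8 stood in SK-N-BE(2)C at 16.0, 17.3, 16.9, 16.8 and 16.7 CPM untreated, 1.30, 0.865, 0.362, 0.167 and 0.340 CPM at 24 h and 1.45, 0.216, 0.0420, 1.08 and 0.991 CPM at 7 d. The untreated libraries lay close together, and the treated ones held 1 to 26 reads each. E2F8 fell by 4.76 ± 0.48 (adjusted p = 1.42e-06) at 24 h and fell by 4.58 ± 0.48 (adjusted p = 5.69e-07) at 7 d, and 7 d differed from 24 h by 0.18 ± 0.60 (adjusted p = 0.811).

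In IMR-32 E2F8 stood at 12.3, 11.1, 10.5, 9.65 and 24.3 CPM untreated, 0.196, 0.0501, 0.0992, 0.163 and 0.0626 CPM at 24 h and 3.32, 2.07, 3.50, 2.85 and 4.26 CPM at 5 d. The 3 groups did not overlap. The libraries of 24 h held 1 to 4 reads each and 11 in all, against 1348 untreated, a 114-fold difference in CPM with an exact 95% counting interval of 63.4 to 229. The fitted log2 fold change was -6.76 ± 0.40 (adjusted p = 2.91e-09) at 24 h and -2.10 ± 0.27 (adjusted p = 2.13e-05) at 5 d, and the rise from 24 h to 5 d was 4.66 ± 0.41 (adjusted p = 8.32e-07). Without replicate 5 the values for E2F8 were -6.31 ± 0.27, -1.90 ± 0.17 and 4.40 ± 0.31.

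In SH-SY5Y E2F8 stood at 27.6, 22.3, 21.1, 24.3 and 29.6 CPM untreated, 0.237, 0.349, 0.356, 0.683 and 0.262 CPM at 24 h and 0.112, 1.51, 1.98, 3.30 and 3.99 CPM at 5 d. The first library of 5 d, with 2 reads, was below every library of 24 h, and the other 4 were above all of them. E2F8 fell by 5.99 ± 0.48 (adjusted p = 1.1e-07) at 24 h and fell by 3.59 ± 0.38 (adjusted p = 8.73e-07) at 5 d, and rose by 2.40 ± 0.59 (adjusted p = 0.0045) between these times. In the 5 d group of SH-SY5Y, replicate 1 was the lowest and replicate 5 the highest library for E2F1, E2F2, E2F7, E2F8 and TFDP1.

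**Figure D3:**
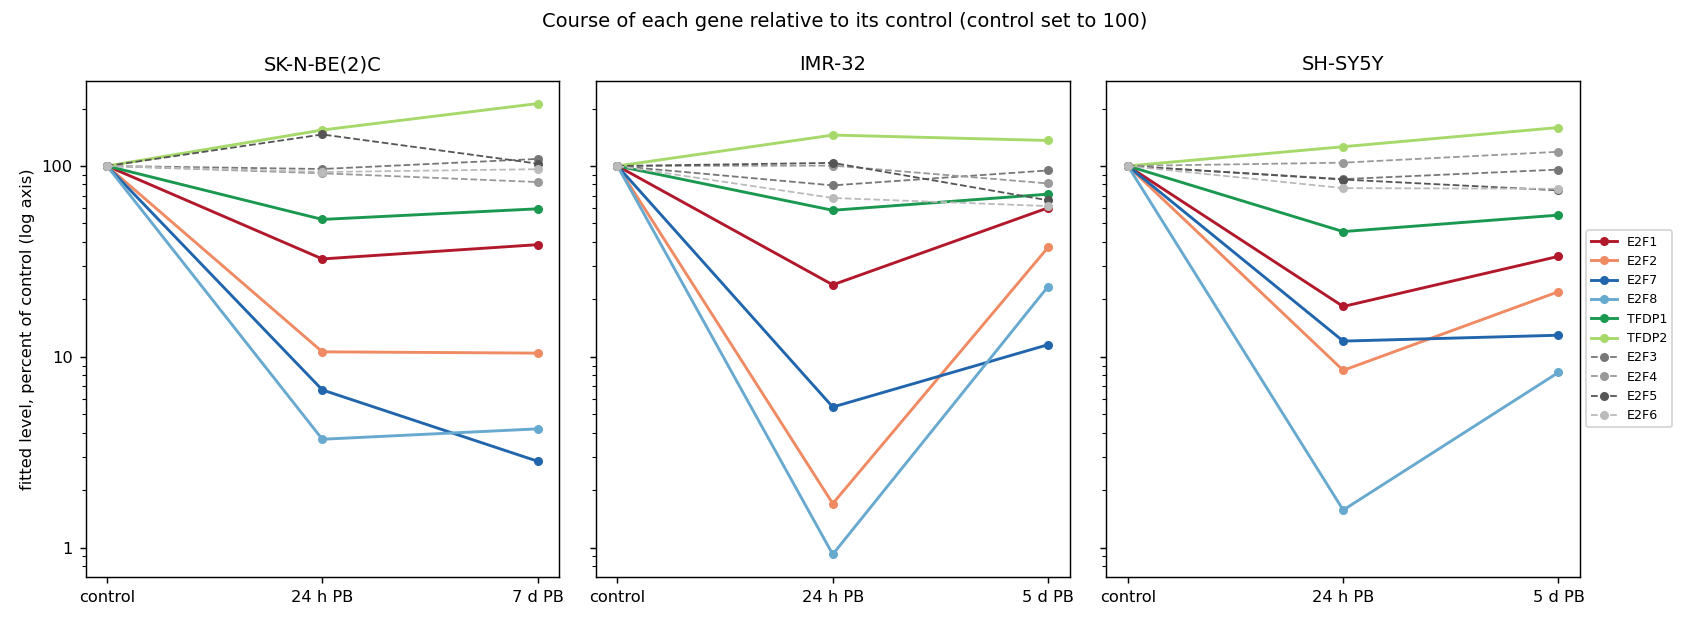
Fitted level as a percent of control, taken from the log2 fold change, on a log axis, for each gene at control, 24 h and longer PB, 1 panel per line. E2F1, E2F2 and E2F8 climb again from 24 h to 5 d in IMR-32 and SH-SY5Y and stay low at 7 d in SK-N-BE(2)C, where E2F7 is at its lowest.

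The dimerization partners moved in opposite directions. TFDP1, whose product DP1 is the main partner of E2F1 to E2F6, stood at 278, 293, 265, 269 and 274 CPM untreated in SK-N-BE(2)C, 155, 172, 131, 139 and 142 CPM at 24 h and 201, 153, 153, 174 and 165 CPM at 7 d. Treated and untreated libraries did not overlap. TFDP1 fell by 0.93 ± 0.09 (adjusted p = 3.07e-07) at 24 h and fell by 0.75 ± 0.09 (adjusted p = 8.79e-07) at 7 d. In IMR-32 it went from 203, 203, 206, 209.5 and 242 CPM to 118, 124, 119, 116 and 127 CPM at 24 h and 147, 141, 152, 145 and 178 CPM at 5 d, again without overlap with control. It fell by 0.77 ± 0.08 (adjusted p = 2.33e-06) at 24 h, and at 5 d its change of -0.49 ± 0.08 (adjusted p = 0.000151) was just under the limit on size. Without replicates 1, 2 or 3 of the untreated group that change was -0.51, -0.51 and -0.505, and without replicate 5 of 5 d it was -0.56, all past the limit. With replicate 5 left out of all 3 groups it was -0.498 ± 0.06 and not called, as with all libraries. In SH-SY5Y TFDP1 went from 167, 153, 168, 169 and 163 CPM to 77.5, 74.5, 72.1, 79.4 and 70.9 CPM and 72.7, 89.2, 103, 94.5 and 115 CPM, and fell by 1.14 ± 0.09 (adjusted p = 1.94e-08) at 24 h and fell by 0.86 ± 0.09 (adjusted p = 2.79e-07) at 5 d.

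TFDP2, which encodes the partner DP2, stood at 64.7, 67.4, 72.7, 72.3 and 72.2 CPM untreated in SK-N-BE(2)C, 104, 104, 113, 119 and 110.2 CPM at 24 h and 139, 168, 171, 142 and 143 CPM at 7 d. The 3 groups did not overlap and lay in that order. TFDP2 rose by 0.63 ± 0.06 (adjusted p = 7.55e-07) at 24 h and by 1.09 ± 0.06 (adjusted p = 4.94e-10) at 7 d, to 212% of control. In IMR-32 it went from 98.4, 104, 102, 103 and 83.2 CPM to 142, 120.3, 146, 141 and 141 CPM at 24 h and 125, 131, 143, 140.4 and 132 CPM at 5 d, above control in every library. It rose by 0.54 ± 0.07 (adjusted p = 1.82e-05) at 24 h, which was 0.49 without replicate 5 of the untreated group and then no longer called. At 5 d its change of 0.44 ± 0.07 (adjusted p = 8.1e-05) was under the limit on size. In SH-SY5Y TFDP2 went from 74.5, 84.5, 78.3, 77.3 and 86.7 CPM to 92.1, 111, 97.9, 106 and 104 CPM and 142, 139, 136, 128 and 124 CPM, with a change of 0.34 ± 0.06 (adjusted p = 0.000162) at 24 h, under the limit, and a rise of 0.67 ± 0.06 (adjusted p = 3.33e-08) at 5 d.

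To compare levels between genes, CPM was divided by the length of the exon union in kilobases. On that scale TFDP1 was the highest untreated member in SK-N-BE(2)C, at 73.7 ± 2.91 CPM per kilobase, with E2F1 at 65.1 ± 6.92. In SH-SY5Y TFDP1 stood at 43.8 ± 1.69 and E2F1 at 40.0 ± 4.45 CPM per kilobase, and in both lines the libraries of these genes overlapped. CPM not divided by length did not overlap, at 265 to 293 for TFDP1 and 159 to 203 for E2F1 in SK-N-BE(2)C. The ranges were 153 to 169 and 94.2 to 122 CPM in SH-SY5Y. In IMR-32 the order was the reverse, with E2F1 at 112 ± 9.38 and TFDP1 at 56.8 ± 4.46 CPM per kilobase. E2F4 and E2F3 followed in every line, at 25.3 ± 1.33 and 17.6 ± 0.888 CPM per kilobase in SK-N-BE(2)C. They stood at 26.0 ± 1.07 and 23.8 ± 1.55 in SH-SY5Y, and at 21.0 ± 1.48 and 19.4 ± 1.96 in IMR-32. The libraries of E2F4 and E2F3 overlapped in IMR-32 and SH-SY5Y. Without division by length, E2F3 lay above E2F4 in these lines without overlap. Its CPM was 91.7 to 118 against 69.9 to 83.3 in IMR-32 and 112 to 134 against 86.6 to 95.4 in SH-SY5Y. At 24 h in SH-SY5Y E2F4 became the highest member, at 27.2 ± 1.02 CPM per kilobase, with E2F1 at 7.40 ± 1.96. Without division by length, E2F3 at 106 CPM and TFDP2 at 102 CPM lay above E2F4 at 98.0 CPM there. E2F8 was the lowest member at 24 h in every line.

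By class, the activators held 66.2% ± 2.04 (SD over 5 libraries) of all E2F RNA per kilobase in untreated SK-N-BE(2)C, 50.7% ± 2.43 at 24 h and 56.7% ± 3.98 at 7 d. In SH-SY5Y they held 60.1% ± 1.43, 42.5% ± 1.87 and 47.8% ± 3.47, and in IMR-32 76.2% ± 2.71, 55.5% ± 5.32 and 76.4% ± 1.63. Without replicate 5 the values in IMR-32 were 77.3% ± 1.18, 53.2% ± 0.960 and 75.8% ± 1.26 (n = 4). The share of the activators was thus lower at 24 h in every line, and at 5 d in IMR-32 its libraries overlapped the untreated ones with and without replicate 5. The canonical repressors held 27.3% ± 1.56, 48.7% ± 2.80 and 42.9% ± 4.26 in SK-N-BE(2)C. Their shares were 30.1% ± 1.46, 56.1% ± 1.78 and 50.5% ± 4.10 in SH-SY5Y and 19.2% ± 0.893, 44.1% ± 5.45 and 22.4% ± 1.80 in IMR-32, or 19.2% ± 1.02, 46.5% ± 0.951 and 23.1% ± 1.33 without replicate 5. At 24 h their summed level moved less than their share, from 38.4 ± 1.49 to 38.3 ± 2.32 CPM per kilobase in SK-N-BE(2)C. In SH-SY5Y it went from 40.4 ± 1.52 to 38.7 ± 1.59, and in IMR-32 from 35.4 ± 1.84 to 31.8 ± 1.62. At the longer time it was 34.8 ± 1.55 in SK-N-BE(2)C, 43.8 ± 1.03 in SH-SY5Y and 26.3 ± 0.829 in IMR-32, where the sum was lower than untreated while the share was slightly higher. Over the first 24 h the activators went from 93.5 ± 6.55 to 40.1 ± 5.54 CPM per kilobase in SK-N-BE(2)C, from 80.9 ± 4.88 to 29.3 ± 1.93 in SH-SY5Y and from 141 ± 8.64 to 41.0 ± 10.1 in IMR-32, or from 140 ± 9.95 to 36.6 ± 1.83 without replicate 5. The atypical E2Fs held 6.59% ± 0.683 untreated and 0.591% ± 0.420 at 24 h in SK-N-BE(2)C, and 9.81% ± 0.828 and 1.39% ± 0.193 in SH-SY5Y. In IMR-32 they held 4.65% ± 2.63 and 0.426% ± 0.135, or 3.48% ± 0.318 and 0.369% ± 0.0523 without replicate 5, whose untreated library had 9.33%. The order of the classes depends on the length used, since the activators were above the repressors in 7 of 9 groups per exon union and in 4 of 9 per canonical transcript. These shares sum the genes described above and were not tested.

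TFDP1 held 92.6% ± 0.568 of the RNA of both partners per kilobase in untreated SK-N-BE(2)C, 80.9% ± 2.39 at 24 h and 77.7% ± 3.47 at 7 d. The values were 87.2% ± 1.69, 73.5% ± 1.85 and 78.2% ± 1.79 in IMR-32. They were 86.6% ± 1.11, 70.0% ± 1.85 and 68.9% ± 4.75 in SH-SY5Y. TFDP1 was the more abundant partner in all 9 groups on this scale. On CPM not divided by length its share was 12.8 to 27.6 percentage points lower. It then lay under that of TFDP2 in 3 groups, at 46.7% ± 2.43 in IMR-32 at 24 h and at 42.4% ± 2.18 and 41.3% ± 5.29 in SH-SY5Y at 24 h and 5 d.

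**Figure D4:**
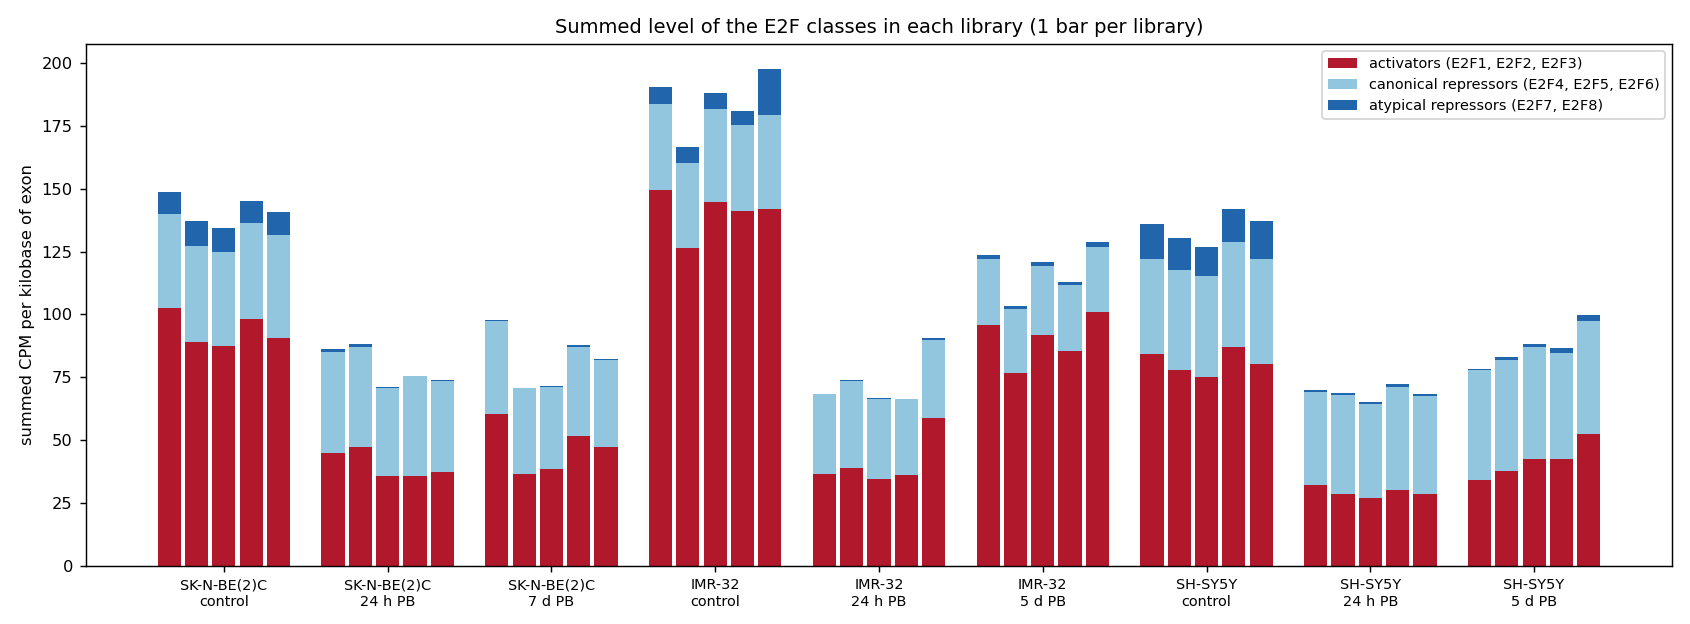
Summed CPM per kilobase of exon union of the activators (E2F1 to E2F3), canonical repressors (E2F4 to E2F6) and atypical E2Fs (E2F7, E2F8), stacked for each of the 45 libraries. The activator part shrinks at 24 h in every line, the repressor part keeps nearly the same height at that time, and the atypical part almost disappears.

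Whether the lines differed was tested in 1 fit of all 45 libraries. Untreated E2F1 was lower in SK-N-BE(2)C than in IMR-32, with a log2 difference of -0.77 ± 0.20 (adjusted p = 0.000758), and was higher in SK-N-BE(2)C than in SH-SY5Y by 0.90 ± 0.20 (adjusted p = 0.000127) and in IMR-32 than in SH-SY5Y by 1.67 ± 0.21 (adjusted p = 2.37e-09). TFDP1 was higher in SK-N-BE(2)C than in SH-SY5Y by 0.95 ± 0.09 (adjusted p = 1.16e-12) and in IMR-32 than in SH-SY5Y by 0.56 ± 0.09 (adjusted p = 4.45e-07). With library size alone that last difference was 0.37 and not called, while E2F2 (-0.90, adjusted p = 0.023) and E2F8 (-0.88, adjusted p = 0.0224) were then called lower in IMR-32 than in SH-SY5Y. With all libraries and TMM factors these were -0.71 (adjusted p = 0.0737) and -0.69 (adjusted p = 0.0725). These were 1 call of 10 between SK-N-BE(2)C and IMR-32 (62.1% of all genes), 2 between SK-N-BE(2)C and SH-SY5Y (57.5%) and 2 between IMR-32 and SH-SY5Y (54.2%). Without replicate 5, E2F7 and E2F8 were called lower in IMR-32 than in SH-SY5Y, by -0.75 and -0.95, and TFDP2 higher, by 0.55.

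At 24 h the response of 1 member differed in each pair of lines. The log2 response of E2F2 was 2.64 ± 0.66 (adjusted p = 0.00951) higher in SK-N-BE(2)C than in IMR-32 (4.49% of all genes called), and it was -2.35 ± 0.66 (adjusted p = 0.0329) in IMR-32 against SH-SY5Y (3.07%). Both rest on few reads in IMR-32, and the first was lost without replicate 2 (2.34, adjusted p = 0.0797) or 4 (2.70, adjusted p = 0.0543), the second without replicate 2, 4 or 5 (adjusted p = 0.0911 to 0.177). E2F5 differed by 0.76 ± 0.13 (adjusted p = 0.000292) between SK-N-BE(2)C and SH-SY5Y (2.04%). Between SK-N-BE(2)C and IMR-32 the difference of E2F5 was 0.499 ± 0.13 (adjusted p = 0.0106), just under the limit on size. It passed with the replicate block (0.51, adjusted p = 0.00166), RLE factors (0.54), library size alone (0.57) and no filter (0.58). Leaving out replicate 1 (0.55), 2 (0.54) or 5 (0.55) also gave a call. Leaving out another replicate did not, with a lowest value of 0.43.

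At the longer time, 3 members differed between IMR-32 and SH-SY5Y, both at 5 d, where 20.8% of all genes did. These were E2F1 with 0.79 ± 0.29 (adjusted p = 0.0334), E2F8 with 1.44 ± 0.54 (adjusted p = 0.0402) and E2F4 with -0.61 ± 0.09 (adjusted p = 9.62e-07). The calls of E2F1 and E2F8 were lost without replicate 1, 2, 3 or 4 (adjusted p = 0.0679 to 0.118 for E2F1 and 0.0769 to 0.146 for E2F8), and that of E2F4 was not. SK-N-BE(2)C was sampled at 7 d, so time and line cannot be told apart in its pairs. Against IMR-32, 6 members differed (23.9% of all genes), with log2 differences of -1.80 ± 0.54 for E2F2, 0.67 ± 0.13 for E2F5, 0.67 ± 0.10 for E2F6, -2.01 ± 0.63 for E2F7, -2.45 ± 0.59 for E2F8 and 0.67 ± 0.09 for TFDP2. Against SH-SY5Y, 2 differed (21.2%), E2F4 by -0.56 ± 0.09 and E2F7 by -2.22 ± 0.62. E2F7 lost its call against IMR-32 without replicate 2 (-1.66) or 3 (-1.52), and against SH-SY5Y without replicate 3 (-1.87). Without replicate 1, E2F2 against IMR-32 was -2.46 and E2F7 against SH-SY5Y was -2.86. E2F2 against SH-SY5Y was -1.09 ± 0.54 (adjusted p = 0.121), -1.27 (adjusted p = 0.0423) with the replicate block and -1.99 (adjusted p = 0.00456) without replicate 1, and E2F8 was -1.75 (adjusted p = 0.0221) without replicate 1.

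Other genes of the pathway were described from 6 lists, with values for SH-SY5Y, IMR-32 and SK-N-BE(2)C in that order. In these lines 11.0%, 10.5% and 10.6% of all genes tested were called lower after 24 h, and 17.3%, 15.5% and 22.3% after longer PB. Calls in the other direction made up 10.5%, 7.87% and 10.9% at the earlier time, and 18.6%, 16.6% and 24.5% at the later one. Of 35 G1/S target genes of E2F, 35, 35 and 34 fell at 24 h, with median log2 fold changes of -2.33, -2.93 and -1.81. RRM2, a subunit of the enzyme that makes deoxynucleotides, changed by -5.24, -4.87 and -3.91 and the thymidine kinase TK1 by -3.92, -4.39 and -3.47. CCNE2 and CCNA2, which encode cyclins E2 and A2, changed by -4.57, -5.02 and -3.10 and by -4.41, -3.45 and -3.71. All of these fell. At the longer time 34, 31 and 34 targets were lower, with medians of -1.90, -0.99 and -2.08, and TYMS, the thymidylate synthase, was at -2.74, -1.55 and -2.89. From 24 h to the longer time 18 were higher in SH-SY5Y (10.5% of all genes) and 34 in IMR-32 (10.8%), while in SK-N-BE(2)C 2 were higher (17.5%) and 3 were lower (14.4%), with medians of 0.52, 1.75 and 0.11. The median over all genes was within 0.06 of 0 in each comparison.

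Among the pocket proteins, RBL1, which encodes p107, fell in each line, with log2 fold changes of -2.13, -1.99 and -1.94 at 24 h. At the longer time they were -2.01, -1.13 and -2.16. RB1 changed by -0.50, -0.69 and -0.64 at 24 h, which was under the limit on size in SH-SY5Y and called lower in the other lines, and it was called in no line at the longer time. RBL2, which encodes p130, rose by 0.51 in SH-SY5Y at 5 d and was not called elsewhere against control. Of 8 genes for the MuvB complex, B-MYB, FOXM1 and their kinase, which act on cell cycle promoters with or after E2F, 6, 5 and 5 fell at 24 h and 4, 3 and 3 were lower at the longer time, with median log2 fold changes of -0.53, -0.62 and -0.53 and of -0.38, -0.30 and -0.42. The MuvB subunit LIN37, named after its values were seen, was called higher at both times in SH-SY5Y, at 0.52 and 0.93, and in IMR-32, at 0.62 and 0.58, and was not called against control in SK-N-BE(2)C. MYBL2, which encodes B-MYB, was at -4.32, -3.51 and -3.30 at 24 h and FOXM1 at -3.37, -3.10 and -3.29. The MuvB subunits LIN52 and LIN54 also fell at 24 h, at -0.54, -0.59 and -0.95 and at -0.52, -0.91 and -0.53.

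Of 13 genes for the Polycomb complex PRC1.6, in which E2F6 works, 11, 10 and 11 were tested, 3, 2 and 3 fell at 24 h and 4, 1 and 3 were lower at the longer time, none was called higher, and the medians were -0.28, -0.17 and -0.12 and then -0.39, -0.30 and -0.35. At the longer time the counts in IMR-32 and SK-N-BE(2)C lay near the share of all genes called lower there, 15.5% and 22.3%. PCGF6, a defining subunit, fell in each line, at -0.86, -0.94 and -0.80 at 24 h, as did WDR5, at -0.65, -0.52 and -0.59. Of 7 germline genes known to be repressed through E2F6, 5 were in the tables and 2 passed the filter, in IMR-32 alone. They were STAG3, at -1.35 at 24 h and -1.40 at 5 d, and SMC1B, at -1.04 and -0.58, both called lower and named after their values were seen. Of 6 genes that control the stability of E2F and DP proteins, 3, 2 and 3 fell at 24 h and 3, 2 and 3 were lower at the longer time, beside 10.5% to 11.0% and 15.5% to 22.3% of all genes, with medians of -0.44, -0.24 and -0.49 and of -0.43, -0.20 and -0.57. CCNF, which encodes cyclin F, was at -2.28, -1.96 and -1.87 at 24 h, and SKP2, which targets E2F1 for degradation, at -0.74, -0.55 and -0.53.

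The genes most like each member were found by Pearson's r of log2(CPM + 1), centred within each line, over 45 libraries and 12546 genes. These correlations describe libraries that share the PB treatment. E2F1 was closest to GINS2 (r = 0.98), HJURP and CDC45, and E2F2 to ATAD2 (0.98), BRIP1 and MELK. E2F7 was closest to DEK (0.98), GMNN and CNOT9, E2F8 to KIF11 (0.99), CCNF and CENPE, and TFDP1 to CDC20 (0.99), KIF4A and PBK. E2F3 was closest to LOC100421372 (0.85), GSTCD and ZC3H7A, E2F4 to H19 (0.78), TXNDC12 and SLC2A4, E2F5 to ACAT1 (0.82), RCN1 and SUGCT, and E2F6 to PMAIP1 (0.87), ARHGEF26 and SMAD3. TFDP2 was closest to CALCOCO1 (0.97), KLHL24 and IP6K2. Between members, r was 0.98 for E2F8 and TFDP1, 0.96 for E2F1 and TFDP1, 0.95 for E2F1 and E2F2 and -0.89 for E2F7 and TFDP2, and that of E2F4 with any other member lay between -0.17 and 0.20.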

How the data were processed

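Polyadenylated RNA of 3 neuroblastoma lines was sequenced in 45 libraries, 5 replicates for each of 9 groups taken from the labels. Per the submitters' processing notes and the study's methods, the authors trimmed reads with Trim Galore 0.6.4, aligned them to hg19 with STAR (2.6.1d in the processing notes, another 2.6.1 release in the methods) and counted reads per gene with STAR, and the deposited raw counts are whole numbers without normalization. The authors' deposited CPM tables hold these counts scaled to library size, equal to CPM recomputed here within a relative difference of 5e-15. Deposited DESeq2 tables hold the authors' own comparisons (fold changes and p-values) and were not used. The gene family and the lists were chosen with earlier results of these data known, and the members of the family were then taken by symbol.

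Counts were tested per line with edgeR 4.0.16 in R 4.3.3: a filter on low counts (filterByExpr, minimum 10, total 15, share 0.7), TMM factors, robust quasi-likelihood F tests with 1 mean per group and Benjamini-Hochberg adjustment over all genes tested (14547 in SH-SY5Y, 14293 in IMR-32 and 14055 in SK-N-BE(2)C). Differences between lines came from 1 fit of all libraries (16282 genes). Genes were called at an adjusted p under 0.05 when the log2 fold change was over 0.5 in size. All members were named, and of each list the genes called in the same direction in all 3 lines at a time, at most 4 of them by mean change, with all 3 pocket proteins. The fit per line and the fit of all libraries were first tested on simulated counts, each for 1 comparison at 24 h. The other comparisons and the alternatives below were not simulated.

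Same-numbered samples deviated together (every correlation over 0.1) in all comparisons of IMR-32 and SH-SY5Y and in control against 24 h of SK-N-BE(2)C, and not in those with 7 d. The labels do not say what a number shares. Alternatives were RLE factors, library size alone, no filter, DESeq2 1.42.0, no fold limit, a replicate block, leaving out each library, and for the classes CPM without length, the canonical transcript length and IMR-32 without replicate 5, of which the last 2 were added after seeing the data. No replicate pair differed by as little as sampling noise. Intervals and floors cover counting error only. Positions are from GENCODE in GRCh37, and promoters from RefSeq in GRCh38.p14, with no coordinates converted.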

Additional observations from a re-analysis of the deposited data

Results flagged for a closer look

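In 12 of 90 groups of 5 libraries, 1 library lay far from the other 4 by Dixon's test, where chance gives about 1 in 20. Of the 12, 8 were in IMR-32, and 7 of these were replicate 5. That replicate stood high for E2F1 at 24 h (109 CPM), E2F3 at 24 h (95.0 CPM), E2F7 untreated (79.1 CPM) and at 24 h (3.63 CPM), E2F8 untreated (24.3 CPM) and TFDP1 untreated (242 CPM), and low for TFDP2 untreated (83.2 CPM). Replicate 2 was low for TFDP2 at 24 h (120 CPM). In SK-N-BE(2)C, untreated replicate 5 was high for E2F4 (99.4 CPM). In SH-SY5Y, E2F4 was low in untreated replicate 1 (86.6 CPM) and in replicate 4 of 5 d (111 CPM), and E2F8 was high in replicate 4 of 24 h (0.683 CPM).

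The response to PB differed between lines for 14 pairs of a member and a comparison in the fit of all libraries. At 24 h these were E2F2 with 2.64 ± 0.66 (adjusted p = 0.00951) in SK-N-BE(2)C against IMR-32, E2F5 with 0.76 ± 0.13 (adjusted p = 0.000292) in SK-N-BE(2)C against SH-SY5Y and E2F2 with -2.35 ± 0.66 (adjusted p = 0.0329) in IMR-32 against SH-SY5Y. At 7 d in SK-N-BE(2)C against 5 d in IMR-32 the log2 differences were -1.80 ± 0.54 (adjusted p = 0.00872) for E2F2, 0.67 ± 0.13 (adjusted p = 8.44e-05) for E2F5, 0.67 ± 0.10 (adjusted p = 1.88e-06) for E2F6, -2.01 ± 0.63 (adjusted p = 0.0122) for E2F7, -2.45 ± 0.59 (adjusted p = 0.00133) for E2F8 and 0.67 ± 0.09 (adjusted p = 1.36e-07) for TFDP2. Against 5 d in SH-SY5Y they were -0.56 ± 0.09 (adjusted p = 4.26e-06) for E2F4 and -2.22 ± 0.62 (adjusted p = 0.0054) for E2F7. Between IMR-32 and SH-SY5Y at 5 d they were 0.79 ± 0.29 (adjusted p = 0.0334) for E2F1, -0.61 ± 0.09 (adjusted p = 9.62e-07) for E2F4 and 1.44 ± 0.54 (adjusted p = 0.0402) for E2F8. Adjusted p-values are from edgeR's quasi-likelihood test. Without replicate 5 of every group, the call of E2F2 at 24 h in IMR-32 against SH-SY5Y was lost (-2.37, adjusted p = 0.0911), and the others were kept. Time and line cannot be told apart in the differences of 7 d against 5 d.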

How the results depend on the processing

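No called value of a member changed direction under any alternative, and within lines 34 changes of sign all concerned values called in neither fit. Without the fold limit, 6577, 9993 and 8335 genes were called in SK-N-BE(2)C (24 h, 7 d, 7 d against 24 h), 7154, 9516 and 6331 in SH-SY5Y (24 h, 5 d, 5 d against 24 h) and 4738, 7296 and 4914 in IMR-32, and members called were 4 for 7 d against 24 h in SK-N-BE(2)C, 9 for 24 h and 7 for 5 d against 24 h in SH-SY5Y. With RLE factors and with library size alone, 0 members were called for 7 d against 24 h in SK-N-BE(2)C, where E2F5 came to -0.49 and -0.50, and 5 and 5 members had an unadjusted p under 0.05 in edgeR. By DESeq2 1 was called there. For the 24 h response of SK-N-BE(2)C against IMR-32, 3 members were called with RLE factors, 3 with library size alone, 3 without the filter and 2 with the replicate block. Untreated, the same pair had 3, 2 and 3 calls under the first 3 of these. Without the filter, IMR-32 against SH-SY5Y had 0 calls at 24 h (E2F2, adjusted p = 0.0653, with 3 members at an unadjusted p under 0.05) and 1 at the longer time (E2F1, adjusted p = 0.0658, and E2F8, adjusted p = 0.0743, were lost). TFDP1 at 5 d in IMR-32 was called with RLE factors (-0.51), without the filter (-0.51) and by DESeq2 (-0.51), TFDP2 at 24 h in IMR-32 was not with library size alone (0.49), and E2F7 from 24 h to 5 d was by DESeq2 (adjusted p = 0.0233).

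Leaving out 1 library at a time, in 45 fits, gave 0 to 2 members called for 7 d against 24 h in SK-N-BE(2)C, and leaving out 1 replicate number in all lines gave 0 to 2 for the 24 h response of SK-N-BE(2)C against IMR-32, 0 to 1 for IMR-32 against SH-SY5Y, 1 to 4 and 1 to 3 for the longer response of SK-N-BE(2)C and of IMR-32 against SH-SY5Y, and 1 to 2 and 2 to 5 untreated for SK-N-BE(2)C against IMR-32 and IMR-32 against SH-SY5Y. Within lines the replicate block changed the call of a member only for E2F7 from 24 h to 5 d in IMR-32, and between lines only for E2F5 at 24 h and E2F2 at the longer time; no paired analysis was possible for untreated lines because the block is nested in the line. Without replicate 1, E2F1 was also called at the longer time for SK-N-BE(2)C against IMR-32 (-0.73), and E2F5 untreated (-0.57). Without replicate 5, TFDP2 was called untreated for that pair (-0.53), and without replicate 4, E2F5 untreated for IMR-32 against SH-SY5Y (0.54). In SK-N-BE(2)C the pairs among replicates 3, 4 and 5 differed by a chi-square per degree of freedom of 2.43 to 3.18 untreated and 1.69 to 2.42 at 24 h, less than the other pairs, while at 7 d only 4 and 5 were close (5.6, against 28.8 and 29.5 for 3 with 4 and 5). With these 3 summed to 1 library, 7, 6 and 1 members were called there. The share of the activators was 10.3 to 14.9 percentage points lower per canonical transcript, and that of TFDP1 among the partners 12.8 to 27.6 points lower without a length. Depth limits E2F8 most, with 1 to 4 reads per library at 24 h in IMR-32. The causes of these changes were not tested.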
